A study of Mus musculus with 6 samples.

Results

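The mitochondrial ribosomal proteins are the nuclear-encoded proteins of the ribosome inside mitochondria, and their transcripts were compared here between resting and interleukin-4-treated mouse macrophages. Members were the genes whose symbol is Mrpl or Mrps followed by a number, which gave 78 of the 25124 genes measured. By symbol, 49 belong to the large subunit (Mrpl) and 29 to the small subunit (Mrps). The macrophages were grown from femur and tibia marrow of 8-week-old wild-type C57BL/6 mice over 7 days in 20 ng/ml M-CSF, the growth factor that turns marrow cells into macrophages. All 6 libraries share that growth factor throughout. M0 libraries (n = 3) come from cells kept in 20 ng/ml M-CSF alone, and M2 libraries (n = 3) from cells given 10 ng/ml interleukin-4 (IL-4) with 20 ng/ml M-CSF, both collected 4 h later. Polyadenylated RNA from 100 ng of total RNA was sequenced, so each value is a transcript level in a whole culture. In such a culture, fewer cells of a type and less RNA per cell cannot be told apart. The labels do not say whether libraries of a group come from separate animals, so p-values measure the spread between these libraries, which may be technical.

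The mitochondrial ribosome makes only the few proteins encoded by mitochondrial DNA, all of them hydrophobic subunits of the respiratory chain and ATP synthase. Its RNA is made inside the organelle, whereas every one of its proteins is made in the cytosol and imported, so that its assembly draws on 2 genomes. It descends from a bacterial ribosome, and it has lost RNA and gained proteins that bacteria lack. Some symbols mislead about the place of the product. Mrps30 and Mrps18a encode proteins that structures place in the large subunit (mL65 and mL66), and Mrps36 encodes KGD4, a subunit of the 2-oxoglutarate dehydrogenase complex of the citric acid cycle. Macrophages given IL-4 are known for a reliance on oxidative metabolism.

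Promoters are shown for 6 members that stand at the ends of the ranges described below: the largest fall (Mrps18b and, among large subunit genes with a sequence in the promoter table, Mrpl47) and the largest rise (Mrps36 and Mrpl36) in each subunit, and the genes that lost (Mrpl33) and gained (Mrps15) the most TPM. Each run has 300 bases, reads 5′ to 3′ on the gene's strand, ends just downstream of the annotated start, and comes from RefSeq on GRCm38.p6. Capitals mark matches on either strand to the NRF1 core GCGCATGC, the ETS core CCGGAAGT (bound by GABP among others), the E-box CACGTG (bound by MYC and MAX among others) and the YY1 motif AAGATGGC.
Mrps18b (chr17:35916391-35916690, minus strand): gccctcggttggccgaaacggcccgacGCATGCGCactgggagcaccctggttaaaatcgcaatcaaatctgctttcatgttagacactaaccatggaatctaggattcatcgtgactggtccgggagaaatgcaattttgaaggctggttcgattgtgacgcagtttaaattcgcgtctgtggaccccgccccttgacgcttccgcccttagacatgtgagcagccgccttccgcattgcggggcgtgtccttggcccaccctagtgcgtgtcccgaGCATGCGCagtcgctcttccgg
Mrpl47 (chr3:32736706-32737005, minus strand): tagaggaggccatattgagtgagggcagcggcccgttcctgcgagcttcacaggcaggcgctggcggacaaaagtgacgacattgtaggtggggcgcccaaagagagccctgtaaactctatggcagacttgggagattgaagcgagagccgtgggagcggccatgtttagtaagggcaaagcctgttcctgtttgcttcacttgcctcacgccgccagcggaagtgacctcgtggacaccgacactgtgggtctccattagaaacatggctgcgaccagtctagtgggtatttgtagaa
Mrpl33 (chr5:31613701-31614000, plus strand): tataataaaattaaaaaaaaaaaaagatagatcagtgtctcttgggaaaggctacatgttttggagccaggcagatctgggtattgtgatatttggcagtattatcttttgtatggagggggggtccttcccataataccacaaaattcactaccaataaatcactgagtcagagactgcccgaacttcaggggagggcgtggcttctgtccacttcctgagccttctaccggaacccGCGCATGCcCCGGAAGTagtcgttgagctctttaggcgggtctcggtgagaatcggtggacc
Mrps36 (chr13:100744610-100744909, minus strand): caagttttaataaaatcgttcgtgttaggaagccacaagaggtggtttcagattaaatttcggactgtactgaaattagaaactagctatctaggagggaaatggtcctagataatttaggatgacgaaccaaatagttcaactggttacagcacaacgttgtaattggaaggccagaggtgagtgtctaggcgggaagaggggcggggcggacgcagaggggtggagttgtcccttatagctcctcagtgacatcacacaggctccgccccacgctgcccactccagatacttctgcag
Mrpl36 (chr13:73330759-73331058, plus strand): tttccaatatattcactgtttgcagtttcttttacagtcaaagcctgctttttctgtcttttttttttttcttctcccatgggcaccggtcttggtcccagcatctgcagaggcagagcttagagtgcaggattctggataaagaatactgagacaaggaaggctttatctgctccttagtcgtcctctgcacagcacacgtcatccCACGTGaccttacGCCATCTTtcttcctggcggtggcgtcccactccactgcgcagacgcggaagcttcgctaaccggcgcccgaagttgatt
Mrps15 (chr4:126046678-126046977, plus strand): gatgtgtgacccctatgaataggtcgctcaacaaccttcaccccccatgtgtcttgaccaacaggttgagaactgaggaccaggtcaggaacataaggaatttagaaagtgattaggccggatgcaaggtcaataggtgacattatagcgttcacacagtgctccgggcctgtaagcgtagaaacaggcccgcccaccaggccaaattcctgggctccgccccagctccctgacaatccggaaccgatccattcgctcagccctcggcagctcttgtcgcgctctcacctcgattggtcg
The promoter of Mrps18b holds 2 copies of the NRF1 core, that of Mrpl33 an NRF1 core beside an ETS core, and that of Mrpl36 an E-box and a YY1 motif. None of the 4 motifs is in the windows of Mrpl47, Mrps36 and Mrps15, which says only that these letters are not there.

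The promoter table held 69 of the 78 members, and for 64 of these the annotated start lay within 1 base of the deposited one. The YY1 motif was in 12 of the 69 member promoters (17.4%), against 2.88% of all 27025 promoters of the same length and 5.26% of those of tested genes. The ETS core was in 11 (15.9%, against 4% of all and 9.48% of tested genes), and the NRF1 core was in 8 (11.6%, against 2.80% and 5.85%). The E-box was in 5 (7.25%), against 7.24% of all and 10.9% of tested genes, and the SP1 motif GGGCGG was in 34 (49.3%, against 35.9% of all and 65.7% of tested genes). At least 1 of the first 4 motifs was in 43.5% of member promoters and 15.3% of all promoters. That share was not counted for tested genes, whose promoters held each of the 4 motifs more often than all promoters did. Members' promoters had a median GC content of 58.3%, against 52.7% for all promoters, which also bears on how often GC-rich letters occur. Among members called on both scales described below, 3 of 16 lower and 0 of 5 higher genes with a promoter held the NRF1 core, 3 of 16 and 1 of 5 held the ETS core, and 2 of 16 and 1 of 5 held the YY1 motif.

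The deposited libraries correspond to 16913185 to 19019893 reads in genes, recovered from the TPM steps, and each member had 71 to 1234 of them per library. The cultures carried the RNA of macrophages: 8 of 8 macrophage markers were tested, with summed levels of 16395 to 17546 TPM in M0 and 15189 to 15567 TPM in M2. Summed markers of mast cells and basophils, T and NK cells and B cells reached at most 0.239 TPM in any library. Dendritic cell markers summed to 0.292 to 0.551 TPM in M0 and 1.08 to 1.33 TPM in M2, and eosinophil markers to 1.54 to 1.59 and 2.40 to 2.84 TPM, so both were higher in every M2 library. Fibroblast markers, at 8.32 to 8.90 TPM in M0 and 6.22 to 6.67 TPM in M2, were lower in every M2 library, and neutrophil and precursor markers overlapped, at 16.3 to 21.9 and 14.2 to 19.8 TPM. The part of these cells in the results was not tested. Within these lists, Epx (eosinophils) and Mcpt8 (basophils) were at 0 in all libraries, while the eosinophil marker Siglecf averaged 2.1 TPM and was tested. M0 library 2 was the lowest of the 3 M0 libraries in 45 of 78 members (57.7%), against 29.4% of all genes tested, and likewise in 46 of 76 cytosolic ribosomal protein genes (60.5%). Calls were made on 2 scales, because the choice shifts every gene. On TPM as deposited (transcript abundance scaled for length and depth), the median log2 fold change of all genes, M2 minus M0, was -0.15. After each library was divided by its median-ratio factor (0.941 to 1.09), which sets the typical gene level between libraries, it was 0.00.

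All 78 members were expressed well enough to be tested. On TPM as deposited, 5 of 78 rose (6.41%, against 17.7% of all 11235 genes tested) and 37 fell (47.4%, against 45.3%), at an adjusted p under 0.05 by limma-trend. Over all genes, 62.9% passed in either direction. The share of members that fell is near that of all genes, and the median member (-0.14) lies near the median gene (-0.15), so the number of falls is no result about these genes. In the large subunit 2 rose, 22 fell and 25 did not pass, with a median log2 fold change of -0.13. In the small subunit 3 rose, 15 fell and 11 did not pass, with a median of -0.17. Leaving out M2 library 1 or M2 library 3 left 1 rise in the large subunit, and leaving out M0 library 3 gave 5 rises in the small subunit. Without M0 library 2, the large subunit had 2 rises and 27 falls and the small subunit 3 and 15, where 20.1% of all genes tested rose and 46% fell.

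On the median-scaled values the members split evenly. There 9 large subunit genes were higher, 9 were lower and 31 did not pass, and 7 small subunit genes were higher, 8 were lower and 14 did not pass. Of all genes, 28.9% were higher and 28.1% lower on that scale, 57% in either direction. Member medians were 0.03 for the large and -0.01 for the small subunit. Without M0 library 2, the median-scaled counts were 8 higher and 14 lower in the large subunit and 9 and 9 in the small subunit, where all genes gave 31% and 28.9%. In the authors' deposited table, with its own scaling, 5 large subunit genes were higher and 6 lower, and 6 small subunit genes were higher and 5 lower (adjusted p under 0.05). Of the 11235 genes tested here, 25.8% were higher and 25.8% lower by the authors' deposited table.

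**Figure D1:**
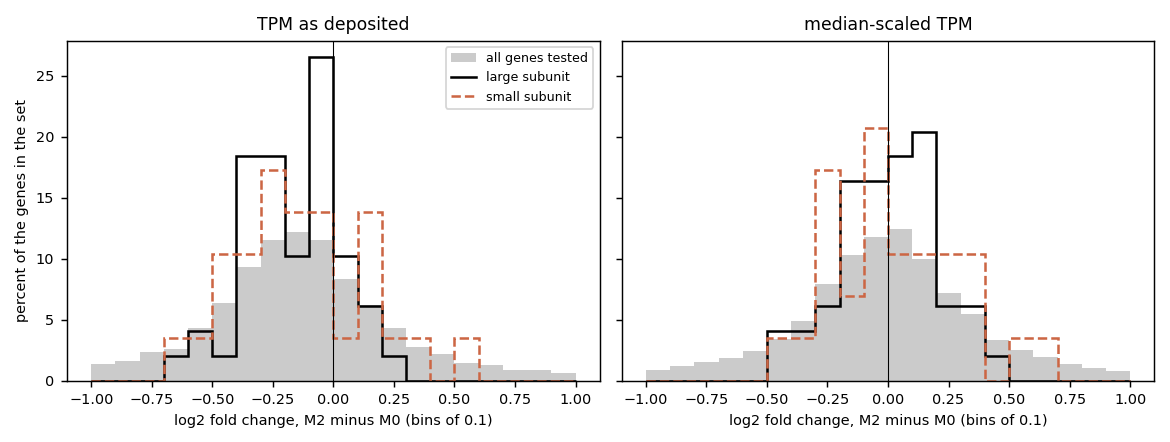
Share of genes (vertical axis, percent of each set) per bin of log2 fold change, M2 minus M0 (horizontal axis, bins of 0.1), for all genes tested (grey area), the large subunit (solid line) and the small subunit (dashed line), on TPM as deposited (left) and median-scaled TPM (right). Members lie between -0.62 and 0.51 on the left, around the same centre as all genes, while 8.1% of all genes lie beyond 1 in either direction and are not drawn.

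Changes in the members were small. Only 3 of 78, Mrpl19, Mrps18b and Mrpl47, moved by 1.5-fold or more on TPM as deposited (fitted values), against 20.3% of all genes tested, and 0 moved by 2-fold, against 8.1%. After median scaling 1 of 78, Mrps36, moved by 1.5-fold (19.1% of all genes) and 0 by 2-fold (7.88%). For the 36 members that did not pass on TPM as deposited, fitted log2 fold changes ran from -0.26 to 0.19, and their 95% confidence bounds from -0.57 to 0.40. The 3 libraries of each group did not overlap in 6 members that were higher in M2 (19.6% of all genes) and in 37 that were lower (49.8%). With median scaling they did not overlap in 22 higher and 19 lower members, where all genes gave 32.6% and 32.3%. Across the 78 members, log2 fold change had a Spearman rho of -0.17 with transcript length and 0.202 with mean TPM, values that share the same 6 libraries and are given as a description.

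**Figure D2:**
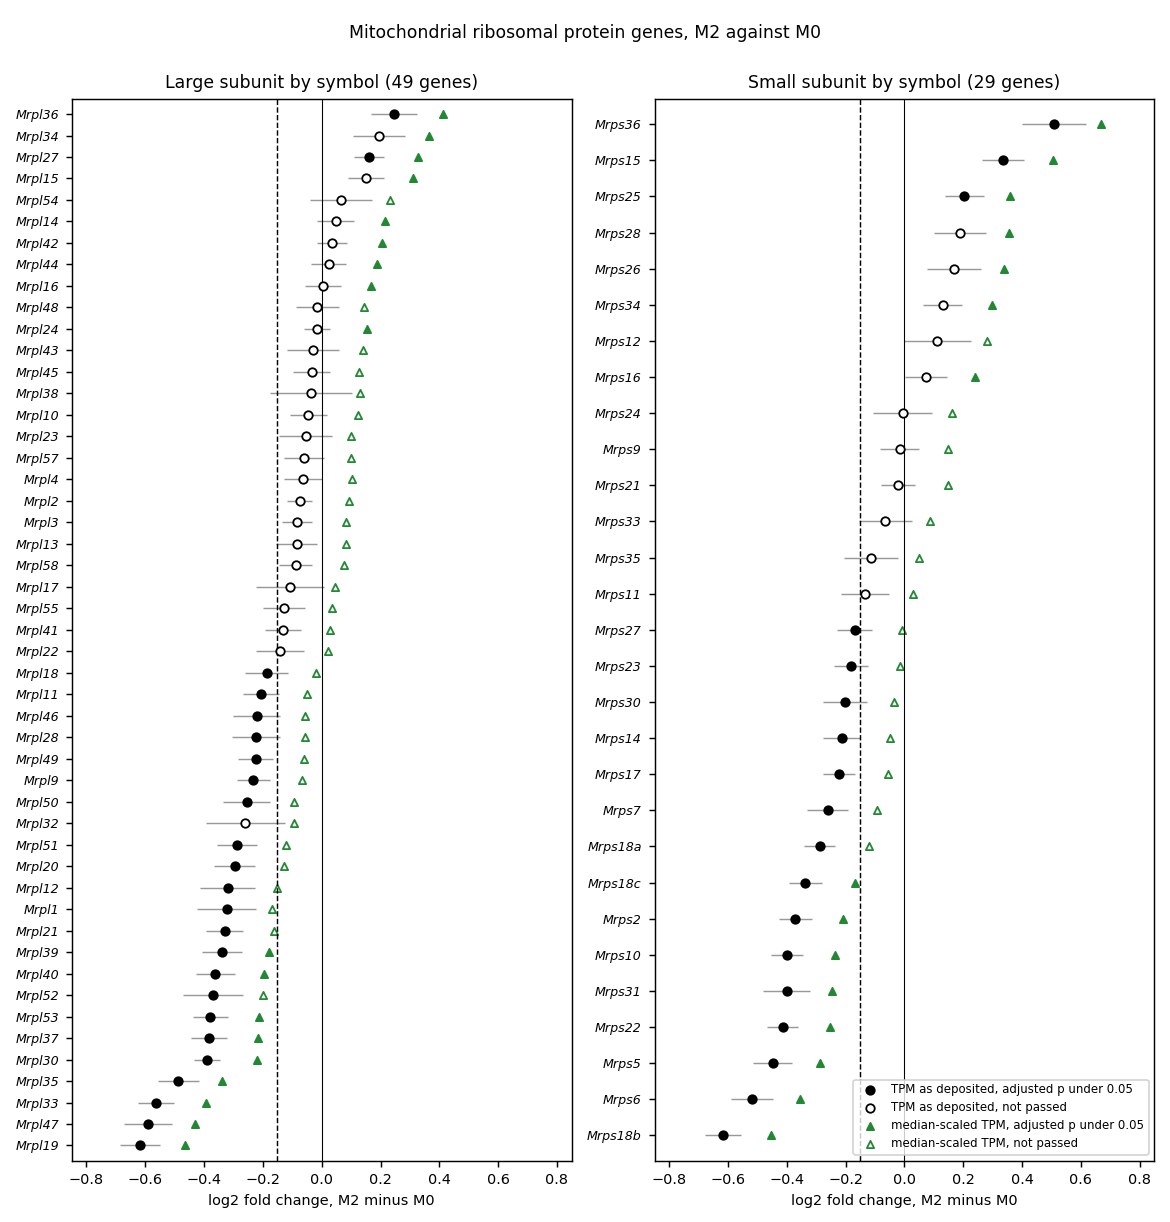
Log2 fold change, M2 minus M0, of each large (left) and small (right) subunit gene on TPM as deposited (circles, bars are ± 1 SE) and on median-scaled TPM (triangles), filled where the adjusted p was under 0.05. The dashed line is the median of all genes on TPM as deposited (-0.15), and the 22 genes with both symbols filled on the same side of 0 are the ones called on both scales.

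Members called in the same direction on both scales numbered 22. The scales differ by a nearly constant shift, so agreement between them is not separate support. Over all genes, the 1983 rises on both scales are those of TPM as deposited, and the 3159 falls are those after median scaling. The rule thus keeps the stricter scale for each direction. In the large subunit 2 rose (Mrpl36 and Mrpl27) and 9 fell (Mrpl19, Mrpl47, Mrpl33, Mrpl35, Mrpl30, Mrpl37, Mrpl53, Mrpl40 and Mrpl39). In the small subunit 3 rose (Mrps36, Mrps15 and Mrps25) and 8 fell (Mrps18b, Mrps6, Mrps5, Mrps22, Mrps31, Mrps10, Mrps2 and Mrps18c). Over all genes tested on both scales, 17.7% rose and 28.2% fell by the same rule. On TPM as deposited, the 17 falls also passed with each library left out in turn, as did 2 of the 5 rises (Mrps36 and Mrps15). That scale, with its median gene at -0.15, is the lenient one for falls and the strict one for rises. After median scaling, limma-trend adjusted p ran from 0.000105 (Mrps18b) to 0.0327 (Mrpl40) for the falls. For the rises it ran from 0.000685 (Mrps25) to 0.00437 (Mrpl36), so these fits do not rank falls above rises in stability.

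**Figure D3:**
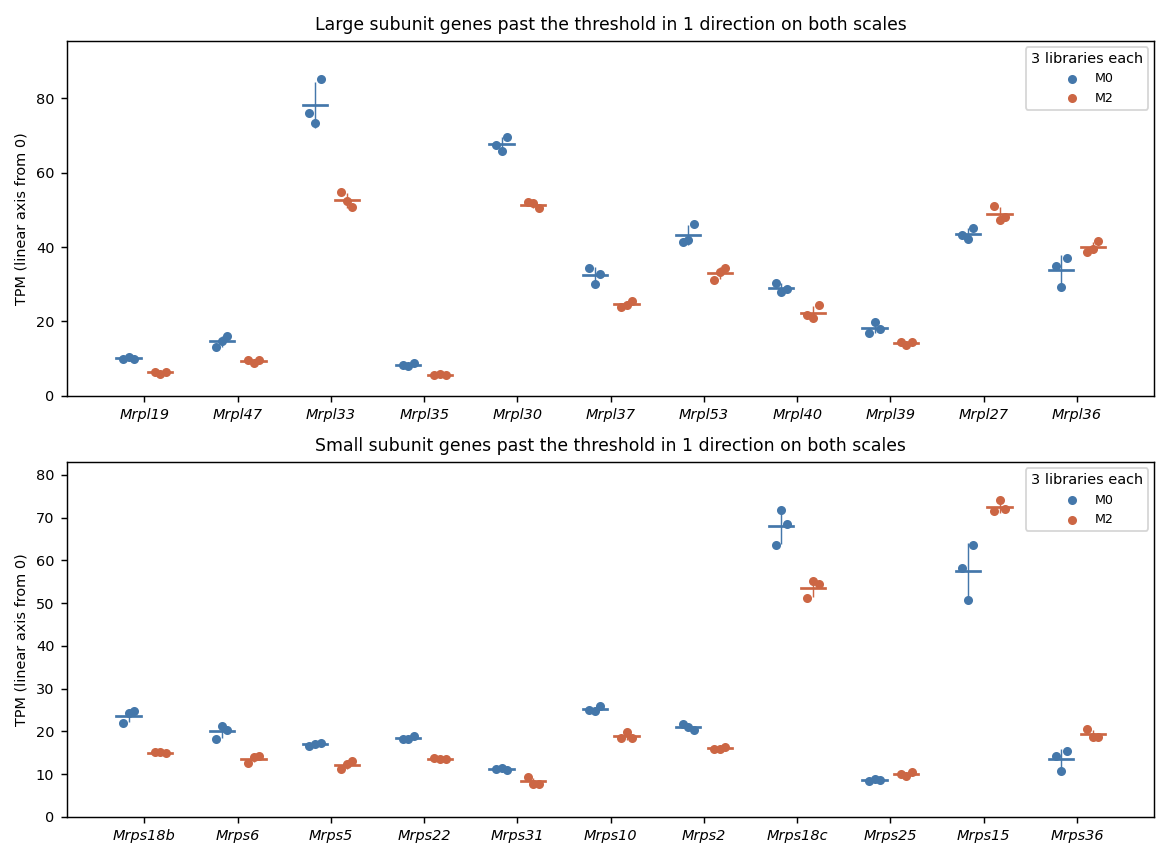
TPM as deposited (linear axis from 0) of the 22 members called on both scales, large subunit above and small subunit below. Points are single libraries, horizontal bars are group means and vertical bars are ± 1 SD (n = 3). The M0 and M2 points are apart for each gene, and Mrpl33, Mrpl30, Mrps18c and Mrps15 have the highest levels.

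Large subunit genes that fell on both scales include several with bacterial counterparts. Mrpl19 (transcript NM_026490, mm10 chr6:81957842-81965949, minus strand), the counterpart of bacterial L19 at the contact between subunits, had 9.79, 10.4 and 9.96 TPM in the M0 libraries and 6.46, 5.85 and 6.33 TPM in M2. Every M2 value lay below every M0 value. M2 minus M0 on the log2 scale came to -0.62 (SE 0.069, adjusted p = 2.49e-05), and -0.47 after median scaling. Of its annotated exon bases, 36% overlap those of Gcfc2 on the opposite strand, and Gcfc2 had a log2 fold change of -0.68 at 3.73 TPM. Whether the counting used strand is not given in the sources used here, and the part of the overlap in the result was not tested.

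Mrpl47 (NM_029017, chr3:32727497-32736755, minus strand), the counterpart of bacterial L29, which lies near the exit of the peptide tunnel, had 12.9, 14.8 and 16.05 TPM in M0. The M2 libraries had 9.58, 8.73 and 9.68 TPM. The groups did not overlap, and M0 spread more widely than M2. The log2 fold change was -0.59 (SE 0.083, adjusted p = 0.000136), and -0.43 after median scaling (adjusted p = 0.00152). Exons of Actl6a (10.2% of the bases, log2 fold change -0.44) and Ndufb5 (13.9%, 0.035) overlap it on the opposite strand.

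Mrpl33 (NM_025796, chr5:31613951-31622644, plus strand), the counterpart of the small bacterial protein L33, is the member that lost the most TPM. The M0 libraries had 76.0, 73.4 and 85.3 TPM, and the M2 libraries 54.8, 52.3 and 50.7 TPM. The gap between the groups was wider than the spread within either. Its M0 mean was 78.2 ± 6.26 TPM and its M2 mean 52.6 ± 2.08 TPM (SD over the 3 libraries of a group), and its log2 fold change was -0.56 (SE 0.061, adjusted p = 2.09e-05).

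Mrpl35 (NM_025430, chr6:71812997-71823784, minus strand), the counterpart of bacterial L35, had the lowest mean of the large subunit genes. It stood at 8.18, 7.99 and 8.78 TPM in M0 libraries and at 5.65, 5.82 and 5.46 TPM in M2 libraries. No M2 library reached the lowest M0 library. The log2 fold change was -0.49 (SE 0.070, adjusted p = 0.000156). Mrpl30 (NM_001356482, chr1:37890477-37898338, plus strand), the counterpart of bacterial L30, measured 67.5, 66.0 and 69.7 TPM in M0, compared with 52.03, 51.8 and 50.5 TPM in M2. Both groups were tight and did not overlap. Its log2 fold change was -0.39 (SE 0.044, adjusted p = 2.8e-05), and -0.22 after median scaling. Mrpl37, Mrpl53, Mrpl40 and Mrpl39, which encode proteins with no bacterial counterpart, fell by 0.38, 0.38, 0.36 and 0.34 on the log2 scale. For Mrpl53, 88.0% of the annotated exon bases overlap those of the gene model Gm42688 on the same strand.

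Only 2 large subunit genes rose on both scales. Mrpl36 (NM_053163, chr13:73331009-73332178, plus strand), the counterpart of L36, the smallest bacterial large subunit protein, had 34.8, 29.2 and 37.1 TPM in M0. In M2 it had 38.8, 39.5 and 41.6 TPM, so that the groups did not overlap but lay close. The fit gave a log2 change of 0.25 (SE 0.079, adjusted p = 0.0204), and 0.41 after median scaling (adjusted p = 0.00437). Without M2 library 3 the value was 0.22 with an adjusted p of 0.0749, and with no filter on low genes the adjusted p was 0.056. Without M0 library 2, its lowest library, the value dropped to 0.15 but still passed. Mrpl27 (NM_053161, chr11:94653791-94660087, plus strand), the counterpart of bacterial L27, whose N-terminal tail reaches the peptidyl transferase centre, had 43.3, 42.2 and 45.2 TPM in the M0 and 51.1, 47.1 and 48.1 TPM in the M2 libraries. The 2 ranges are apart by less than the M2 range. The log2 fold change was 0.16 (SE 0.051, adjusted p = 0.0193), and 0.33 after median scaling (adjusted p = 0.000767). Without M2 library 1 it was 0.13 with an adjusted p of 0.101.

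Mrpl52 and Mrpl12, the large subunit genes with the 2 highest means, and the stalk genes Mrpl10, Mrpl11 and Mrpl1 were not called on both scales. Mrpl52, a protein found only in mitochondrial ribosomes, had the highest mean of the large subunit, with 90.8, 74.4 and 101.2 TPM in M0 and 64.3, 70.1 and 69.7 TPM in M2. M0 library 2 lay nearest to M2. M2 minus M0 on the log2 scale came to -0.37 (adjusted p = 0.0137), and -0.20 after median scaling (adjusted p = 0.193). Mrpl12, the stalk protein that recruits translation factors and also binds the mitochondrial RNA polymerase, stood at 82.8, 65.0 and 83.8 TPM in M0 libraries and at 63.5, 57.97 and 62.3 TPM in M2 libraries. Again M0 library 2 lay nearest to M2. The log2 fold change was -0.32 (adjusted p = 0.0137), -0.27 without M0 library 1 (adjusted p = 0.051) and -0.15 after median scaling (adjusted p = 0.28).

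Mrpl10, which anchors Mrpl12 to the stalk, measured 40.8, 35.1 and 38.2 TPM in M0, compared with 35.03, 37.7 and 37.6 TPM in M2. The ranges overlapped, with a log2 fold change of -0.045 (adjusted p = 0.547). Mrpl11, at the base of the stalk, had 10.98, 11.7 and 11.2 TPM in the M0 and 9.50, 9.76 and 9.70 TPM in the M2 libraries. These ranges did not overlap, but the log2 fold change of -0.21 (adjusted p = 0.0134) became -0.20 without M2 library 1 (adjusted p = 0.0541) and -0.051 after median scaling (adjusted p = 0.448). Mrpl1, which forms the other stalk beside the exit site, stood at 9.57, 12.5 and 9.67 TPM in M0 libraries and at 8.57, 7.56 and 8.47 TPM in M2 libraries. Here M0 library 2 was the highest, opposite to its place in Mrpl52 and Mrpl12. The log2 fold change was -0.32 (adjusted p = 0.0164), -0.27 without M2 library 2 (adjusted p = 0.0672) and -0.17 after median scaling (adjusted p = 0.144).

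Mrpl45 and Mrpl58 did not pass on either scale. Mrpl45, which helps to hold the ribosome at the inner membrane, measured 14.8, 15.7 and 14.6 TPM in M0, compared with 13.99, 15.4 and 14.6 TPM in M2 (adjusted p = 0.645). Mrpl58 (also Ict1), a peptidyl-tRNA hydrolase that became a ribosomal protein, had 29.1, 30.97 and 30.9 TPM in the M0 and 28.1, 27.3 and 29.9 TPM in the M2 libraries (adjusted p = 0.18). Both pairs of ranges overlapped, and both log2 fold changes turned from negative to positive with median scaling (-0.035 to 0.13 and -0.089 to 0.077) without passing. Over the large subunit as placed by structure, 2 of the 30 genes with a bacterial counterpart rose and 13 fell, and 0 of the 21 specific to mitochondria rose and 11 fell. Falls made up 43.3% and 52.4% of these classes and rises 6.67% and 0%, against 45.3% and 17.7% of all genes tested. After median scaling the counts were 7 and 5 of 30, and 2 and 4 of 21. Of all genes, 28.9% were higher and 28.1% lower on that scale. The difference between these classes was not tested.

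Mrps36 (NM_001190264, chr13:100735940-100744659, minus strand) had the largest rise of all members, although its product, KGD4, joins the 2-oxoglutarate dehydrogenase complex. It stood at 14.2, 10.8 and 15.3 TPM in M0 libraries and at 20.6, 18.7 and 18.7 TPM in M2 libraries. The groups were clearly apart, with M0 library 2 the lowest. Its log2 fold change was 0.51 (SE 0.11, adjusted p = 0.00265), and 0.67 after median scaling (adjusted p = 0.00222). The transcript kept for Mrps36 differs between the 2 deposited tables.

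Mrps15 (NM_025544, chr4:126046928-126055536, plus strand), the counterpart of bacterial S15, an early-binding protein of the small subunit, gained the most TPM. It measured 58.2, 50.7 and 63.7 TPM in M0, compared with 71.5, 74.1 and 72.1 TPM in M2. Every M2 library lay above every M0 library, and M2 was the tighter group. The means were 57.5 ± 6.53 and 72.6 ± 1.39 TPM (SD, n = 3 each), the log2 fold change was 0.34 (SE 0.073, adjusted p = 0.0024), and it was 0.505 after median scaling (adjusted p = 0.000952). No other gene's annotated exon overlaps those of Mrps15 or Mrps36.

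Mrps25 (NM_025578, chr6:92169523-92184023, minus strand), a mitochondria-specific protein, rose from a low level. It had 8.29, 8.75 and 8.61 TPM in the M0 and 10.1, 9.53 and 10.4 TPM in the M2 libraries. The groups did not overlap. On TPM as deposited, the log2 fold change of 0.204 (SE 0.065, adjusted p = 0.0196) is the least stable of the rises. There the adjusted p was 0.0618 without M0 library 1, 0.0686 without M2 library 1 and 0.0879 without M2 library 3. After median scaling the log2 fold change was 0.36 (adjusted p = 0.000685). Exons of Nr2c2 cover 69.8% of its annotated exon bases on the opposite strand, with a log2 fold change of 0.053 at 7.63 TPM, and the part of that overlap was not tested.

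The 3 S18 paralogues, which descend from 1 bacterial gene and now occupy different places in the ribosome, all fell on TPM as deposited. In the class counts of this report, only Mrps18c is placed with the bacterial counterparts. Mrps18a and Mrps18b are counted there as specific to mitochondria, despite that descent. Mrps18b (NM_025878, chr17:35910380-35916440, minus strand), whose product lies on the small subunit, stood at 21.9, 24.2 and 24.7 TPM in M0 libraries and at 15.2, 15.1 and 14.8 TPM in M2 libraries. The M2 libraries were nearly identical and far below M0. The fit gave a log2 change of -0.62 (SE 0.060, adjusted p = 9.79e-06), and -0.45 after median scaling (adjusted p = 0.000105). An antisense gene model, Gm16279, covers 30.5% of its exon bases.

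Mrps18c, the S18 protein of the small subunit itself, measured 63.6, 71.7 and 68.5 TPM in M0, compared with 51.2, 55.1 and 54.5 TPM in M2. The groups were apart, with a log2 fold change that came to -0.34 (SE 0.055, adjusted p = 0.000407) and -0.17 after median scaling (adjusted p = 0.0182). A fit on the authors' deposited log2-scale values gave -0.15 and did not pass (adjusted p = 0.0516). Of the annotated exon bases of Mrps18c, 23.2% overlap those of the gene model Gm43511 on the same strand. Mrps18a, whose product is in the large subunit, had 55.8, 54.7 and 60.1 TPM in the M0 and 47.3, 47.5 and 44.3 TPM in the M2 libraries. These groups were apart as well, with a fitted change on the log2 scale of -0.29 (SE 0.053, adjusted p = 0.000855), but after median scaling it was -0.12 and did not pass (adjusted p = 0.107). The differences between the paralogues' fold changes were not tested.

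Other small subunit falls were spread over both kinds of protein. Mrps6 (chr16:92058336-92112227, plus strand), the counterpart of bacterial S6, which pairs with S18, stood at 18.3, 21.2 and 20.4 TPM in M0 libraries and at 12.7, 14.02 and 14.2 TPM in M2 libraries. The groups were apart (log2 fold change -0.52, SE 0.072, adjusted p = 0.000123). Of its exon bases, 19.9% overlap Gm49711 and 10.4% overlap Slc5a3 on the same strand. Mrps5, the counterpart of bacterial S5 at the mRNA entry, measured 16.7, 16.985 and 17.2 TPM in M0, compared with 11.2, 12.3 and 13.1 TPM in M2. M0 was the tight group here, and the log2 fold change was -0.45 (SE 0.067, adjusted p = 0.000218).

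Mrps22, a mitochondria-specific protein, had 18.2, 18.3 and 18.8 TPM in the M0 and 13.7, 13.5 and 13.5 TPM in the M2 libraries. The spread in each group was small beside the gap, and the log2 fold change was -0.41 (SE 0.054, adjusted p = 7.98e-05). Mrps31, also mitochondria-specific, stood at 11.2, 11.5 and 10.9 TPM in M0 libraries and at 9.30, 7.77 and 7.71 TPM in M2 libraries. M2 library 1 lay nearest to M0, and the log2 fold change was -0.401 (SE 0.079, adjusted p = 0.00138). Mrps10 and Mrps2, both with bacterial counterparts, fell by 0.399 and 0.37 on the log2 scale. All 6 of these falls also passed after median scaling, at -0.36 to -0.21. Of the 16 small subunit genes with a bacterial counterpart, 1 rose and 8 fell, and of the 10 specific to mitochondria, 1 rose and 5 fell. Falls made up 50% of each class, against 45.3% of all genes tested, and rises 6.25% and 10%, against 17.7%. After median scaling the counts were 3 and 5, and 3 and 3, where 28.9% of all genes were higher and 28.1% lower. The difference between these classes was not tested either.

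Calls on a single scale made up the rest. On TPM as deposited, another 13 large subunit genes fell, with log2 fold changes of -0.37 (Mrpl52) to -0.19 (Mrpl18), and another 7 small subunit genes, with -0.29 (Mrps18a) to -0.17 (Mrps27), without passing after median scaling. Median scaling gave 7 large and 4 small subunit genes as higher that did not pass on TPM as deposited. They were Mrpl34, Mrpl15, Mrpl14, Mrpl42, Mrpl44, Mrpl16 and Mrpl24, and Mrps28, Mrps26, Mrps34 and Mrps16. The first of these, Mrpl34, the counterpart of bacterial L34, is given as an example chosen after its values were seen. Its M0 libraries held 51.2, 44.3 and 59.4 TPM and its M2 libraries 59.3, 58.3 and 58.9 TPM. M0 spread widely and overlapped the tight M2 group, and the log2 fold change was 0.19 (adjusted p = 0.0821), or 0.36 after median scaling (adjusted p = 0.0185). For Mrps34, exons of Mapk8ip3 on the opposite strand cover 63.4% of the exon bases.

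The highest and lowest members of the small subunit did not pass on either scale. Mrps21, the counterpart of bacterial S21, had the highest mean, with 87.8, 82.3 and 91.3 TPM in M0 and 91.7, 81.4 and 84.2 TPM in M2. Mrps33, a mitochondria-specific protein, had the lowest, with 6.55, 7.70 and 7.75 TPM in M0 and 7.83, 6.68 and 6.41 TPM in M2. In each the ranges overlapped, with log2 fold changes of -0.022 (adjusted p = 0.755) and -0.065 (adjusted p = 0.558). Mrps12, the decoding-centre protein, measured 42.4, 30.9 and 41.5 TPM in M0, compared with 39.045, 42.6 and 41.6 TPM in M2. M0 library 2 alone lay below, the log2 fold change was 0.11 (adjusted p = 0.414), and it was -0.032 without that library. Mrps30, placed in the large subunit, had 29.4, 24.6 and 26.3 TPM in the M0 and 22.6, 24.8 and 21.8 TPM in the M2 libraries. Its ranges overlapped, and its log2 fold change of -0.202 (adjusted p = 0.0361) passed in only 2 of the 6 fits that left out a library: the adjusted p was 0.137 without M0 library 1, 0.0546 without M0 library 3, 0.104 without M2 library 1 and 0.135 without M2 library 3. It did not pass with no filter on low genes (adjusted p = 0.0782), with limma-voom on recovered reads (-0.16, adjusted p = 0.11) or after median scaling (-0.037, adjusted p = 0.718).

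Summed over members, the large subunit genes reached 1668 ± 85.4 TPM in M0 libraries and 1491 ± 15.6 TPM in M2 libraries (SD over the 3 libraries). The small subunit genes by symbol, Mrps36 included, reached 901 ± 46.2 and 847 ± 11.2 TPM. After median scaling the sums were 1570 ± 115 and 1580 ± 14.1 TPM for the large subunit and 849 ± 61.9 and 898 ± 11.3 TPM for the small subunit, so the direction of the summed level depends on the scale. As a share of the TPM of all genes, the members made up 0.466% ± 0.0217 in M0 and 0.430% ± 0.00269 in M2.

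The ratio of large to small subunit TPM within a library does not depend on the scale. It was 1.86, 1.85 and 1.85 in the M0 libraries and 1.76, 1.73 and 1.80 in the M2 libraries. Every M2 library lay below every M0 library, and M0 was the tighter group. With Mrps30 and Mrps18a moved to the large subunit, and Mrps36 still counted in the small subunit, the ratio was 2.14 ± 0.00893 in M0 and 2.01 ± 0.0280 in M2. Means of Mrpl33, Mrpl52, Mrpl30 and Mrpl12 differed by -25.7, -20.8, -16.3 and -15.9 TPM, M2 minus M0, that of Mrps18c by -14.4 TPM and that of Mrps15 by 15.025 TPM. Without Mrps15 the ratio was 1.98, 1.97 and 1.98 in M0 and 1.92, 1.89 and 1.96 in M2. Without Mrpl33 it was 1.77, 1.76 and 1.76 in M0 and 1.69, 1.67 and 1.74 in M2. Both genes were chosen after their values were seen, and the groups stayed apart without either, narrowly so without Mrps15. Mrps36, whose product belongs to the 2-oxoglutarate dehydrogenase complex, gained 5.91 TPM and was counted in the small subunit in all these ratios. With Mrps36 alone left out, the groups stayed apart. With Mrps36 and Mrps15 both left out they overlapped, as the ratio of M2 library 3 lay above that of M0 library 2.

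**Figure D4:**
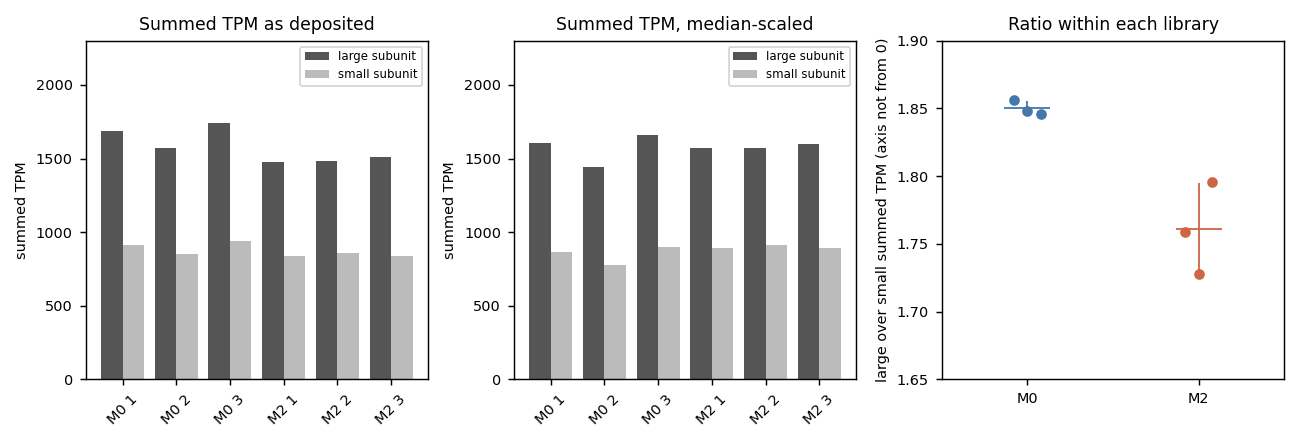
Summed TPM of large (dark) and small (light) subunit genes in each library on TPM as deposited (left) and median-scaled TPM (middle), and the ratio of large to small subunit TPM (right, points are libraries, bars are mean ± 1 SD, axis not from 0). The ratio was 1.85 or 1.86 in the M0 libraries and 1.73 to 1.80 in the M2 libraries, while the sums change order with the scale. Mrps36 is counted in the small subunit.

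Many members share a start region with another gene. By the deposited coordinates, another gene of the table began within 1000 bases upstream on the opposite strand for 27 of 78 members (34.6%), against 9.51% of 20870 protein-coding genes. The latter include genes too low to be tested, unlike the members, and the share among tested genes was not counted. Of the 26 partners tested, 2 were higher and 13 lower on TPM as deposited, where all genes gave 17.7% and 45.3%. After median scaling 6 were higher and 8 lower, where all genes gave 28.9% and 28.1%. Mrps11 and Mrpl46 are partners of each other, so that the pairs number 25, and in 13 of these both genes had the same sign after median scaling. Those 2 genes start 42 bases apart and had log2 fold changes of -0.13 (not passed) and -0.22 on TPM as deposited.

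Mrps18b and Ppp1r10, which encodes a regulatory subunit of protein phosphatase 1, start 756 bases apart. After median scaling they went in opposite directions, with log2 fold changes of -0.45 and 0.24 (adjusted p = 0.00555 for Ppp1r10). Mrpl47 and Ndufb5, a subunit of respiratory complex I, start 308 bases apart and had -0.43 and 0.205 (adjusted p = 0.00326). Mrpl27 and Eme1, which encodes a subunit of a DNA repair nuclease, start 48 bases apart and had 0.33 and -0.42 (adjusted p = 0.000575). Mrpl30 and Mitd1, which acts in the final step of cell division, start 66 bases apart and both fell, by 0.22 and 0.82 on the log2 scale. In 4 pairs both genes passed in opposite directions and in 2 pairs in the same direction.

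**Figure D5:**
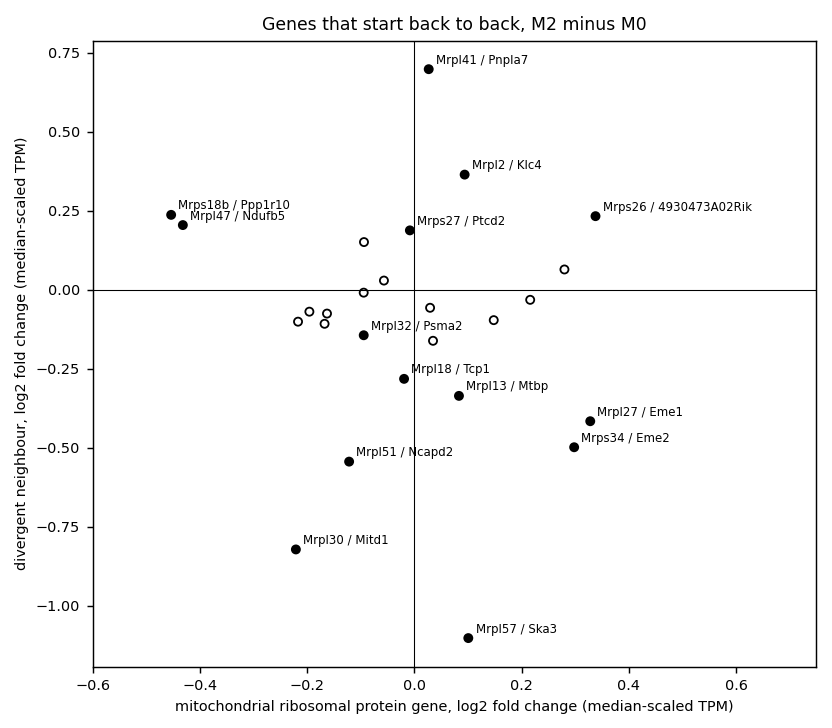
Log2 fold change, M2 minus M0, on median-scaled TPM of 26 members (horizontal axis) and of the genes that start back to back with them (vertical axis), filled and named where the partner's adjusted p was under 0.05. The pair of Mrps11 and Mrpl46 is drawn from both sides, pairs fall in all 4 quadrants, and 13 of the 25 pairs lie where both genes have the same sign.

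Genes that act with the mitochondrial ribosome were counted in lists by role. For comparison, 17.7% of all genes tested rose and 45.3% fell on TPM as deposited, with a median of -0.15. Falls made up 29.4% to 50% of the lists in this and the next paragraph, so their number is no result about these lists. Of 5 other proteins of the mitochondrial ribosome whose symbols are not Mrpl or Mrps, 0 rose, 2 fell and 3 did not pass. Ptcd3, a small subunit protein with RNA-binding repeats, fell from 13.4 ± 1.10 to 7.63 ± 0.766 TPM (log2 fold change -0.74, -0.58 after median scaling), and Chchd1 fell by 0.38 on the log2 scale. Of 14 translation factors and related genes (Lrpprc, Oxa1l and Mtfmt among the latter), 0 rose, 6 fell and 8 did not pass, with a median of -0.18. The largest falls were those of Guf1, an elongation factor (-0.35), Lrpprc, which stabilises mitochondrial mRNA (-0.33), and Gfm1, the elongation factor that moves the ribosome along (-0.31). Guf1 did not pass after median scaling (adjusted p = 0.055), while the other two did.

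Of 27 genes of assembly and rRNA modification, 3 rose, 10 fell and 14 did not pass, with a median of -0.12. Fastkd2, an RNA-binding protein of large subunit assembly, Noa1, a GTPase of small subunit assembly, and Mrm3, an rRNA methyltransferase, fell by 0.62, 0.60 and 0.54 on the log2 scale. Mrm2, another rRNA methyltransferase, Ngrn, needed for the large subunit rRNA, and Mpv17l2, a membrane protein of assembly, rose by 0.31, 0.25 and 0.21. Of 10 genes of mitochondrial transcription and genome maintenance, 0 rose, 5 fell and 5 did not pass. Polg, the mitochondrial DNA polymerase, had the largest fall at -0.45, followed by Tfb2m, a transcription factor of the organelle (-0.29), and Top1mt, its topoisomerase (-0.23). Of these, Tfb2m and Top1mt did not pass after median scaling (adjusted p = 0.134 and 0.367). Of 17 mitochondrial aminoacyl-tRNA synthetases, 1 rose (Wars2, 0.61), 5 fell (largest in Mars2, -0.84, and Yars2, -0.56) and 11 did not pass.

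After median scaling, 1 and 2 of the 5 other ribosome proteins were higher and lower, and 1 and 2 of the 14 translation genes. The same counts were 6 and 6 of the 27 assembly genes, 1 and 1 of the 10 transcription genes and 2 and 2 of the 17 synthetases. Of all genes, 28.9% were higher and 28.1% lower on that scale. The 76 cytosolic ribosomal protein genes, whose products build the other ribosome of the cell, gave 0 rises and 36 falls (47.4%, against 45.3% of all genes) with a median of -0.11, and 7 higher and 0 lower after median scaling. Cytosolic over mitochondrial ribosomal protein TPM was 13.1 ± 0.0516 in M0 and 13.6 ± 0.0248 in M2. Of 9 tested regulators of mitochondrial genes, 1 rose, 4 fell (44.4%, again near the share of all genes) and 4 did not pass, and after median scaling 4 were higher, 3 lower and 2 did not pass. Ppargc1b, a coactivator of mitochondrial genes, rose from 0.776 ± 0.0170 to 3.28 ± 0.0811 TPM (log2 fold change 1.27), Myc fell from 28.4 ± 1.27 to 12.97 ± 0.831 TPM (-1.07), and Pprc1, another coactivator of that family, fell from 15.2 ± 0.268 to 8.70 ± 0.226 TPM (-0.74). The related factor Ppargc1a had 0.0170 ± 0.0214 TPM in M0 and was not tested.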

How the data were processed

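The members and gene lists were chosen with earlier results of these data known. Reads were processed with bcl2fastq, STAR, HOMER 4.11.1 and DESeq2 on mm10, per the submitters' processing notes. The authors deposited TPM per library and gene, counted in exons with 1 transcript kept per gene, per the file headers. The authors' deposited table of the comparison adds log2-scale values, a log2 fold change and p-values. The 2 tables were joined by symbol and keep the same transcript for 65 of the 78 members and different ones for 13. How reads that map to several places or to both strands were handled is not given in the sources used here.

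Multiplied by transcript length, the TPM values are whole multiples of 1 step per library for 99.7% to 99.9% of nonzero values within 0.1 read, which gave the recovered reads, 89.8% to 90.9% of the tags in the file headers. Columns of 3 more libraries named in a header hold no values and are not analysed here. Another list of cell type markers is not reported here.

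Genes that reached 1 TPM in 3 or more libraries were tested by limma-trend (limma 3.58.1, R 4.3.3, robust, two-sided) on log2(TPM + 1), a scale that understates changes of low genes, with group as the only term and Benjamini-Hochberg adjustment over all genes tested. The fit was repeated on TPM divided by median-ratio factors. Fitted standard errors and adjusted p-values are from these fits, and SD is over 3 libraries. Exon overlaps come from GENCODE M21 and promoters from RefSeq. Members with values in every library are the 5 largest rises and falls per subunit, the 3 highest and the lowest by mean TPM, and a set with known roles; from each list up to 3 genes with the largest change past the threshold. Alternatives were other pseudocounts, no filter, limma-voom on recovered reads, the authors' log2-scale values, removal of a length trend, a replicate block and each library left out. Figures were drawn with matplotlib 3.10.9, and tables made with pandas 2.3.3 (Python 3.11.15).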

Additional observations from a re-analysis of the deposited data

How the results depend on the processing

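The number of large subunit genes past the threshold was 17 to 29 and of small subunit genes 13 to 18 under every alternative, but their direction followed the scale. Higher large subunit genes numbered 2, and 1 without the filter, 9 with median scaling, 4 with limma-voom, 8 on the authors' log2-scale values, 4 with the length trend removed, 8 with median scaling without M0 library 2 (chosen after seeing the data), and 1 to 3 with each library left out. Lower ones numbered 22, and 9, 9 and 14 with median scaling, on the authors' values and with median scaling without M0 library 2 (18 to 27 with each library left out). Higher small subunit genes numbered 3, and 7, 7, 6 and 9 with median scaling, the authors' values, the length trend removed and median scaling without M0 library 2 (2 to 5 with each library left out). Lower ones numbered 15, and 8, 7 and 9 with median scaling, the authors' values and median scaling without M0 library 2 (11 to 15). Of all genes in each fit, 17.7% were higher and 45.3% lower on TPM as deposited. The shares were 28.9% and 28.1% with median scaling, and 31% and 28.9% with median scaling without M0 library 2. Without the filter they were 11.98% and 27.4%, and with limma-voom 20.7% and 41.1%. On the authors' values they were 29.5% and 29.6%, and with the length trend removed 27.1% and 32.5%. With each library left out they ran from 14.5% to 20.1% and from 40.3% to 46%. M2 over M0 summed TPM was 0.894 for the large and 0.940 for the small subunit, and 1.01 and 1.06 with median scaling. The cause of these shifts was not tested beyond the scaling itself. Of the 28 named genes, 6 calls were lost with median scaling and 7 on the authors' values, and no gene that passed changed sign. Log2 fold changes of genes that did not pass turned positive: with median scaling, on the authors' values and with median scaling without M0 library 2, Mrps21 had 0.15, 0.13 and 0.089, Mrps33 0.086, 0.065 and 0.10, Mrpl10 0.12, 0.11 and 0.049, Mrpl45 0.13, 0.12 and 0.14, and Mrpl58 0.077, 0.074 and 0.074. With limma-voom Mrps21, Mrpl10 and Mrpl45 had 0.029, 0.0059 and 0.013, and with the length trend removed Mrpl10 and Mrpl45 had 0.040 and 0.094. With each library left out in turn, Mrps21 ranged from -0.071 to 0.014 (0.012 without M0 library 3), Mrpl10 from -0.10 to 0.0051 and Mrps12 from -0.032 to 0.19. Pseudocounts of 0.1 and 5 changed no call of the named genes. Deviations from the group mean correlated at 0.0050, -0.0049 and -0.043 for same-numbered libraries, and at -0.045 to 0.051 for differently numbered ones. This shows no pairing by number, but with 3 libraries per group it cannot exclude a shared animal or day. With a replicate block 25 large and 17 small subunit genes passed, against 24 and 18. With 71 to 1234 reads per member and library and a median SE of 0.068, the smallest change that passed was 0.16 on the log2 scale.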
